A study of Mus musculus with 6 samples.

Results

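The first Bmal1 conditional knockout library of this series, Bmal1 CKO 1, has a list of 1444 peaks, and 1192 of them lie outside the set of places that every library of the study called. These 1192 peaks are described here and are called members below. They were found by merging the 320474 peaks of all 6 lists wherever peaks shared at least 1 bp, chained from peak to peak, which gave 241559 merged regions. Of these regions 230 held a peak of every library and form the 6-library set. The remaining 252 peaks of Bmal1 CKO 1 belong to that set.

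The peaks come from chromatin immunoprecipitation sequencing (ChIP-seq) of mouse retina, in which a rabbit antibody against BMAL1 was used to recover bound DNA. Per the labels, 3 libraries came from Bmal1 CKO mice and 3 from wild-type mice (Control), all of the C57BL/6 strain, with no external treatment and with pups weaned at P20. The labels do not give the Cre driver, the retinal cells that lost Bmal1, the age at collection or the time of day, and they do not say whether a library holds 1 animal or several. A peak list has no expression values, so neither the tissue nor the loss of Bmal1 could be checked against marker genes, and no member lay within 10 kb of Arntl, the gene symbol of Bmal1 in the annotation. Nothing says that the libraries are from separate animals, so a p-value over libraries measures only the spread between these samples, which may be technical.

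BMAL1 is a basic helix-loop-helix transcription factor that pairs with CLOCK, binds E-box sequences, of which CACGTG is the canonical form, and drives the core genes of the circadian clock. Multi-copy gene clusters arise by tandem duplication and carry near-identical copies of genes and pseudogenes side by side. In the mouse they include the defensins, which are antimicrobial peptides, the PRAME-like (Pramel) genes of the germ line, the Speer genes expressed in testis, the KRAB zinc-finger (Zfp) genes, the vomeronasal receptors (Vmn1r and Vmn2r) of the pheromone-sensing organ, and the Sp100/Sp110/Sp140 genes of nuclear bodies. Short reads from near-identical copies can align to more than 1 place, so how an aligner places them bears on any peak called there. How such reads were handled is not given in the sources used here.

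Depth differed strongly between the libraries. A genome-wide background level was recovered from the deposited values, in fragments per base. Bmal1 CKO 1 had 2.78, Bmal1 CKO 2 had 5.83 and Bmal1 CKO 3 had 0.560, against 3.46, 0.609 and 0.852 for Control 1, 2 and 3, a 10.4-times range. The lists are far more uneven. Bmal1 CKO 2 has 138254 peaks and Control 1 has 179475 (the long lists below). Bmal1 CKO 3 has 519, Control 2 has 410 and Control 3 has 372 (the short lists). Bmal1 CKO 1 stands between them in list length. Its background level was 4.97 times that of Bmal1 CKO 3, 4.57 times that of Control 2 and 3.27 times that of Control 3. The levels of Bmal1 CKO 2 and Control 1 were 2.09 and 1.24 times that of Bmal1 CKO 1. The Bmal1 CKO 2 list was nonetheless 95.7 times as long as that of Bmal1 CKO 1. List length thus did not rise in step with the background level. A long list shares a place with any other list more readily, and library depth and genotype cannot be told apart at single places.

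Members overlapped 17 gene start windows of 15 genes, among the 32851 windows of the RefSeq table used here (250 bases before to 50 after each gene start). The sequences below are from RefSeq, build GRCm38.p6, whose coordinates are those of mm10, written 5′ to 3′ on the strand of the gene. The first group holds the 3 genes of highest member fold. The summits of the members at Gm32584 and Vmn2r29 lie outside the printed windows, which show 104 and 258 bases of these members, and that at Gm41331 lies inside. Capitals mark the bases that fall inside the member.
Gm32584, chr5:36661609-36661908 (minus strand): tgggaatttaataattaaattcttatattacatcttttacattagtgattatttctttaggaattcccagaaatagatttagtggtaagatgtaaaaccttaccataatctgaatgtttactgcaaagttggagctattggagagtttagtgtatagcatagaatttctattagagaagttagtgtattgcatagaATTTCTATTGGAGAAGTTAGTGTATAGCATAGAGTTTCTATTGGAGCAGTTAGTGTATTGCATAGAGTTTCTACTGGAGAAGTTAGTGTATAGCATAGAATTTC
Gm41331, chr15:60141661-60141960 (plus strand): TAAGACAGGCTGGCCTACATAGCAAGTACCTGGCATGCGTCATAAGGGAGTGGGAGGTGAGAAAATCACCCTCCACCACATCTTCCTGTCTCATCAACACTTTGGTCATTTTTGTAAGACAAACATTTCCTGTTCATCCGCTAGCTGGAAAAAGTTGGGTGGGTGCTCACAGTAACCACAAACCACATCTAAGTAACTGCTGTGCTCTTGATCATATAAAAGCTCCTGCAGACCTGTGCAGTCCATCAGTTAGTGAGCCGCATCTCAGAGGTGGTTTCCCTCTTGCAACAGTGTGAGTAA
Vmn2r29, chr7:7278240-7278539 (minus strand): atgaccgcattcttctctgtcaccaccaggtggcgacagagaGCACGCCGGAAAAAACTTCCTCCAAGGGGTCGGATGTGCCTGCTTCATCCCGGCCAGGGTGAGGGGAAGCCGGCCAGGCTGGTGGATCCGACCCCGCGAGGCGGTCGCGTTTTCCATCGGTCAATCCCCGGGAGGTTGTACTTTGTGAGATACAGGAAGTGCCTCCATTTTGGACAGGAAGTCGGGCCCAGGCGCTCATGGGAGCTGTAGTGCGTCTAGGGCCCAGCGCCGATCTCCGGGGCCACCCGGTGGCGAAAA
The second group was chosen after the values were seen, to show gene families in which members lie, again with the bases inside the member in capitals. The summits of the members at Sp140 and Zfp600 lie outside the printed windows, which show 123 and 26 bases of these members. Those at Pramel43 and Vmn2r117 lie inside.
Pramel43, chr5:94616291-94616590 (minus strand): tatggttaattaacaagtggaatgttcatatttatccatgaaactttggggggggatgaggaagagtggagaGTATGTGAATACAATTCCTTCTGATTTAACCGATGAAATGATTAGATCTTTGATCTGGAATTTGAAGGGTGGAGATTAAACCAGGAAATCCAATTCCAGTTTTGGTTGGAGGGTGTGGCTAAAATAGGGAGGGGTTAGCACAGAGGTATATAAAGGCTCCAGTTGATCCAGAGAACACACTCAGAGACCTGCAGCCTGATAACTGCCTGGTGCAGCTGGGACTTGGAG
Vmn2r117, chr17:23479548-23479847 (minus strand): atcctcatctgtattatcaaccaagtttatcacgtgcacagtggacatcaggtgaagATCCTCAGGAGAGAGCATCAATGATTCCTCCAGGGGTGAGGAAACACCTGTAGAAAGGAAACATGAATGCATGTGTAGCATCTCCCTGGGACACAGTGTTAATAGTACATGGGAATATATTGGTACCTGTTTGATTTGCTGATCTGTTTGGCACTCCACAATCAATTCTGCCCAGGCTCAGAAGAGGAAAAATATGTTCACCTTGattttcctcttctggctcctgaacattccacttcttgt
Sp140, chr1:85600453-85600752 (plus strand): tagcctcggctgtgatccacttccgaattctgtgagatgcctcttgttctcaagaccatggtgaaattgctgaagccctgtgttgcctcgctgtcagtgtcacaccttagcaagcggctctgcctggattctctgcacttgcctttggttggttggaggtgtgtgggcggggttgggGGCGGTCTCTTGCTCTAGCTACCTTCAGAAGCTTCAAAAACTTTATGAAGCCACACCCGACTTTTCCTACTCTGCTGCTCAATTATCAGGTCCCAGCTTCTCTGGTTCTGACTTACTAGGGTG
Zfp600, chr4:146156577-146156876 (plus strand): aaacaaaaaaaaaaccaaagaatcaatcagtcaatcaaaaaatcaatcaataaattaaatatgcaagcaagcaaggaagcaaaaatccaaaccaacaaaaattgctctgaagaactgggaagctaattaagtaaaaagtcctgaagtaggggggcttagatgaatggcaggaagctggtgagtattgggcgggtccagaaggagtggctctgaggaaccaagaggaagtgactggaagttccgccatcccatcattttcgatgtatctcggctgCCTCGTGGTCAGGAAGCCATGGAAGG
The last sequence is the window of Rex2, a gene of the same zinc-finger cluster, set against that of Zfp600, and here capitals mark the 4 bases that differ from Zfp600 at the same position. The other 296 bases are the same. No member overlaps the Rex2 window.
Rex2, chr4:147021600-147021899 (plus strand): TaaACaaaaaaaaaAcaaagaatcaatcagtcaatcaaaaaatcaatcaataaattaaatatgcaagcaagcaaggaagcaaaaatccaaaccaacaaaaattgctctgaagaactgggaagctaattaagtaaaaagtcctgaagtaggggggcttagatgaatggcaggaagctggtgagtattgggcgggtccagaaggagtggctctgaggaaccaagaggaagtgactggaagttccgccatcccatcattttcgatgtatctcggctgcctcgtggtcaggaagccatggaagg

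The Zfp600 and Rex2 windows lie on the same chromosome, and the differences, counted from 1 at the 5′ end of the window with the Zfp600 base first, were A1T, C4A, A5C and C15A. A near-identical window, meaning at least 90% identity over at least 200 aligned bases with a window of another gene elsewhere, was found for 77 of the 114 windows (67.5%) inside the dense intervals of members defined below. The same held for 9 of the 17 windows (52.9%) that a member overlaps and for 2276 of all 32851 windows (6.93%). Pramel43 had such windows at 5 other genes, Vmn2r117 at 5, Zfp600 at 4 and Sp140 at 2, whereas Gm32584, Gm41331 and Vmn2r29 had none. The E-box CACGTG, which reads the same on both strands, was in 1 of the 17 windows (5.88%), in 6 of the 114 windows in dense intervals (5.26%) and in 2349 of all windows (7.15%). The window that holds it is that of Vmn2r117, where it starts at base 31, outside the bases covered by the member.

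Most members were also called in the long lists and few in the short ones. The authors' lists shared 1024 members (85.9%) with Bmal1 CKO 2, where 55.9% of all merged regions have a peak, and 162 members (13.6%) with Bmal1 CKO 3, which holds a peak in 0.207% of all merged regions. Control 1 shared 911 members (76.4%), beside 73.7% of all merged regions, Control 2 shared 127 (10.7%), beside 0.162%, and Control 3 shared 104 (8.72%), beside 0.145%. The share in Control 1 is thus close to the background of that list. Because the rule used the calls of all 6 lists, these shares describe the members and were not tested.

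Both long lists held 896 members (75.2%), and 625 members (52.4%) were in Bmal1 CKO 2 and Control 1 and nowhere else. Bmal1 CKO 2 without Control 1 held 128 members, and Control 1 without Bmal1 CKO 2 held 15. A short list held 295 members (24.7%), of which 9 were in no long list. No other list held 144 members (12.1%), and 117 members were shared with another Bmal1 CKO library but with no Control library. All 117 were shared with Bmal1 CKO 2 alone, the library with the highest background level.

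**Figure D1:**
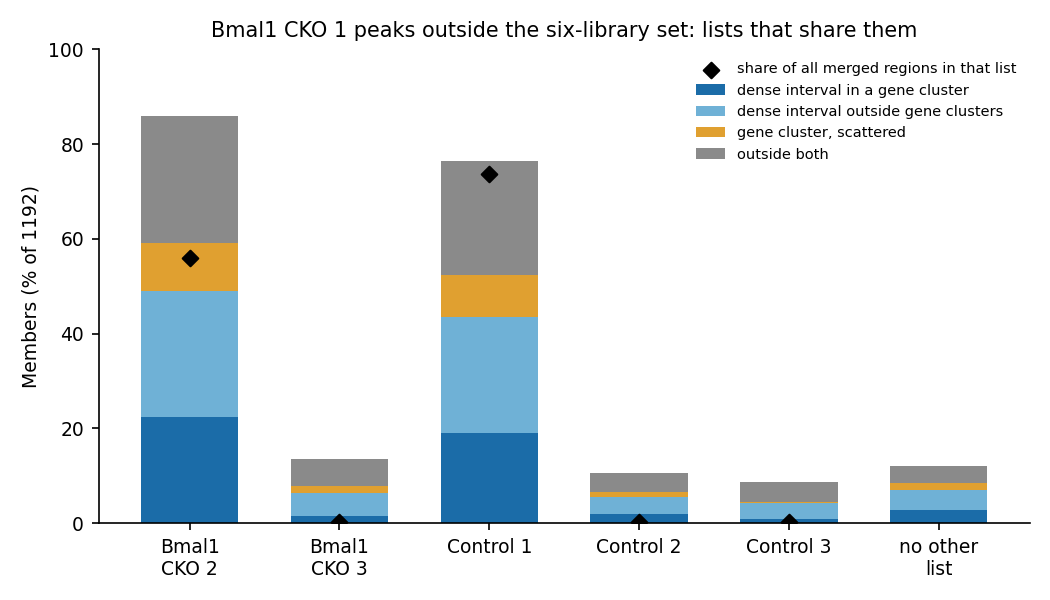
Percentage of the 1192 members that each of the other 5 lists also called, and the percentage in no other list, stacked by class of position. Diamonds give the percentage of all 241559 merged regions that hold a peak of that list. Bmal1 CKO 2 (85.9%) and Control 1 (76.4%) share most members, each short list under 14%.

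Members shared with 3 or 4 other lists had a higher median fold enrichment than those shared with fewer. Fold enrichment is the authors' ratio of fragments at the summit to a local background level. Whether an input library entered that background is not given. The median fold in Bmal1 CKO 1 was 4.49 for members in no other list (144 peaks), 4.74 for those in 1 other list (137), 4.30 in 2 (633), 5.08 in 3 (187) and 5.49 in 4 (91). The 4-list members are the ones nearest to the limit of the rule, and just across it the 252 peaks of the 6-library set had a median fold of 8.02. All members together ranged from 1.49 to 13.5 with a median of 4.51. In the long lists, the peaks that match members ranked high, at a median percentile of 97.7 of the fold within Bmal1 CKO 2 and 93.2 within Control 1. In the short lists they ranked below the middle, at percentile 43.2 in Bmal1 CKO 3, 38.0 in Control 2 and 35.5 in Control 3. The rule itself bears on these ranks, which are descriptions. It leaves out the 6-library peaks, 246 of 519 in Bmal1 CKO 3, 248 of 410 in Control 2 and 249 of 372 in Control 3. In the long lists it keeps only places that the much shorter Bmal1 CKO 1 list also called.

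Gene families held a large part of the members. Multi-copy gene clusters were defined from symbols alone, as runs of at least 3 genes or pseudogenes with the same symbol stem, at most 500 kb apart and widened by 50 kb. They number 443, cover 222 Mb, and held 444 members (37.2%, Wilson 95% interval 34.5 to 40.0, for counting error alone). That interval takes the members as independent, but many lie side by side, so it is too narrow. Of the 6-library peaks of Bmal1 CKO 1, 26 (10.3%) lay in the clusters. The whole lists, which include their 6-library peaks, had 10.5% in Bmal1 CKO 2, 17.0% in Bmal1 CKO 3, 9.82% in Control 1, 15.9% in Control 2 and 11.02% in Control 3. Without those peaks, as for the members, the shares were 10.5% in Bmal1 CKO 2, 23.8% in Bmal1 CKO 3, 9.82% in Control 1, 24.7% in Control 2 and 13.01% in Control 3. The 444 members were spread over 77 of the clusters. Pseudogenes held the summits of 157 members (13.2%), against 6.35% of the 6-library peaks of Bmal1 CKO 1, and protein-coding genes those of 353 (29.6%), against 31.3%.

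The zinc-finger (Zfp) clusters held 133 members, the vomeronasal (Vmn) clusters 128 and the Pramel cluster 90. On chromosome 4 these families interleave: the Zfp cluster from Zfp990 to Zfp933 held 95 members, and 2 runs of Vmn2r pseudogenes inside its span held 43 and 20 of the members also counted for Vmn. Zfp993 alone held 21 summits with folds of 3.5 to 6.87, Zfp978 held 14 with folds of 2.79 to 8.48, Rex2 held 10 with folds of 3.37 to 6.34, and Zfp600 held 8 with folds of 3.26 to 5.96. The strongest Zfp member of chromosome 4, at fold 8.48, was also in Bmal1 CKO 2, Bmal1 CKO 3 and Control 1. A further Zfp cluster, from Zfp930 to Zfp866 on chromosome 8, held 23 members with a median fold of 4.96.

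The Pramel cluster on chromosome 5, from Pramel33 to Pramel50, held 90 members with a median fold of 4.63 and no peak of the 6-library set. Its strongest member, at fold 6.84, was shared with Bmal1 CKO 2 alone, and 7 of the 90 were in no other list. By gene, 16 of 48 Pramel genes had a member within 10 kb, Pramel38 and Pramel44 holding 4 summits each. Outside chromosome 4, the vomeronasal members lay mainly in 2 large runs on chromosome 7, with 18 members between Vmn1r91 and Vmn1r183 and 16 between Vmn2r-ps35 and Vmn2r37. By gene, 21 of 272 Vmn2r genes and 9 of 373 Vmn1r genes had a member within 10 kb. Olfactory receptors (Olfr), the largest gene family of the mouse, had 4 members in 42 clusters that cover 35.5 Mb, and 7 of 1428 Olfr genes had a member within 10 kb.

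Smaller families followed. The Btbd35f genes of the X chromosome held 25 members in 2 clusters. The Speer cluster from Speer4d to Speer4c on chromosome 5 held 18, the strongest at fold 7.14 and shared with Bmal1 CKO 2, Bmal1 CKO 3, Control 1 and Control 3, and 7 of 15 Speer genes had a member within 10 kb. The chemokine (Ccl) cluster on chromosome 4 held 17 members, and the same 17 positions counted for the Fam stem, which numbers unlike genes. The Sp110, Sp140 and Sp100 cluster on chromosome 1 held 16 members, the strongest at fold 5.90. The major urinary protein (Mup) cluster with its margins held 10, although none of its 22 genes had a member within 10 kb. Fcgr held 9, Prl and Tmem held 6 each, and COX, Cyp and Ppp held 5 each. Of these stems, Fam, Tmem and Ppp number genes of unlike sequence across the genome, and COX stands for subunit genes of the mitochondrial genome. The Tmem and Ppp clusters that held members are nonetheless runs of like-named copies, from Tmem181a to Tmem181c-ps and from Ppp1r2-ps6 to Ppp1r2-ps5. Of other families looked for by name, 4 of 53 Obox genes had a member within 10 kb, and Rhox, Nlrp, Scgb, Mrgpr, Xlr, Slx, Krtap and Amy had 1 such gene each. Klra, Ugt, Skint, Serpin, Clec, Ceacam and Cts had none.

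**Figure D2:**
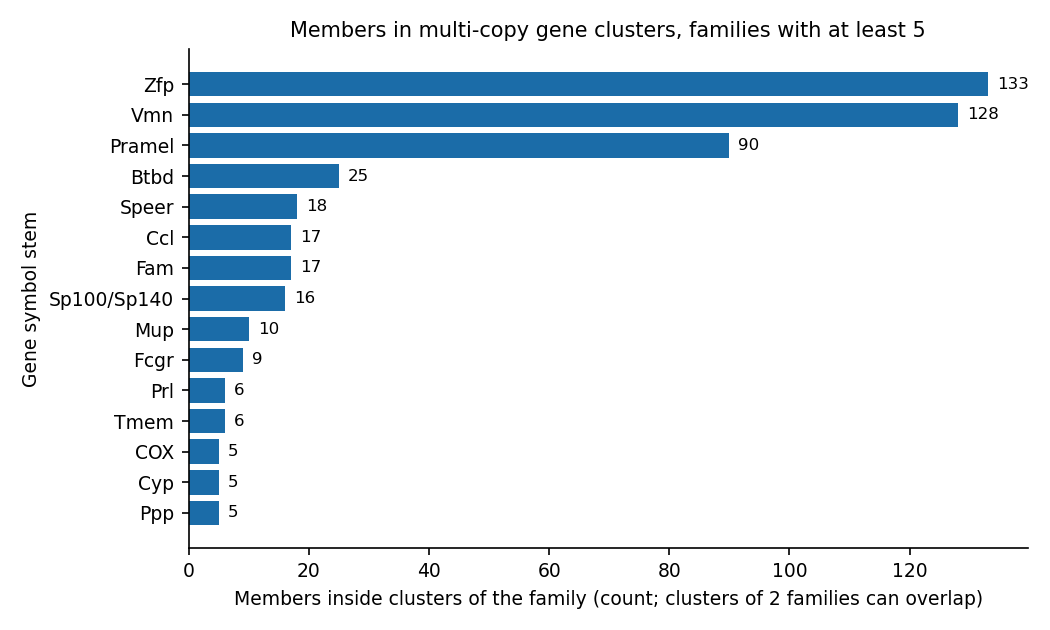
Number of members inside multi-copy gene clusters, for every symbol stem with at least 5. Zfp (133), Vmn (128) and Pramel (90) stand far above the other stems; clusters of 2 stems can overlap, so that a member may be counted for both.

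The members also crowd together irrespective of gene names. Dense intervals, defined as at least 5 members with neighbouring summits no more than 100 kb apart, number 48, span 8.94 Mb in all and held 674 members (56.5%). The 10 with most members held 398 (33.4%) in 4.70 Mb. The same intervals held 26 (10.3%) of the 6-library peaks of Bmal1 CKO 1, 1.65% of the Bmal1 CKO 2 list, 21.6% of the Bmal1 CKO 3 list, 1.04% of the Control 1 list, 21.7% of the Control 2 list and 19.4% of the Control 3 list. Since the intervals were drawn around members, these percentages are descriptions. Of the 1192 members, 302 (25.3%) were in a dense interval and a gene cluster, 372 (31.2%) in a dense interval outside gene clusters, 142 (11.9%) scattered in gene clusters, and 376 (31.5%) in neither.

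The largest interval, chr5:93848826-95417237, held 76 members across the Pramel genes, with folds of 3.41 to 6.84. Next came chr8:20259124-20710629 with 75 members and chr4:146437554-147241876, over Zfp993, Rex2 and Zfp978, with 48. On chromosome 1, chr1:84953664-85345102 held 41 members over placeholder-named genes such as Gm38510 and C130026I21Rik, and chr1:85451204-85659791 held 22, among them the 10 whose summits lie in the span of Sp110, Sp140 and Sp100. The promoter windows of Sp140 and A530032D15Rik, 1 from each of these 2 intervals, were 99.6% identical over 271 aligned bases. Sp140, printed above, held 8 summits with folds of 2.11 to 4.01, the lower part of the members' range, and the local background at them was 8.02 times the genome-wide level in the median.

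The remaining intervals among the 10 were chr8:19903341-20154860 with 40 members, chr5:15469149-15712259 over Speer4d and Speer4c with 29, chr8:69427225-69596975 over Gm9495 and Gm7697 with 23, chr4:145417736-145879784 over Zfp990 and Zfp980 with 22, and chr5:14915938-15062654 over Speer4e with 22. The strongest member of that last interval, at fold 9.11, was shared with Bmal1 CKO 2, Control 1, Control 2 and Control 3. The 23 members of the interval over Gm9495 and Gm7697 are those counted above for the cluster from Zfp930 to Zfp866, although no Zfp gene lies within the interval itself.

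The members near the defensin genes lay beside them and not on them. Between Defb7 and Defb33 on chromosome 8 there is a stretch of 1395 kb, chr8:19497776-20892666, that has no annotated defensin gene, and it held 134 members (11.2%) with folds of 2.43 to 9.25 and a median of 4.10. No member lay among the genes from Defb40 to Defb7, and 1 lay among those from Defb33 to Defb13, with fold 3.96 and within 10 kb of 1 of the 40 Defa genes. In the stretch between, 4930467E23Rik held 7 summits, Gm15319 held 7, Gm21119 held 7 and 9530057J20Rik held 5. Of the 134 members, 131 were in dense intervals and 24 were in no other list, beside 56.5% and 12.1% of all members. Bmal1 CKO 2 shared 108 of the 134, beside 85.9% of all members, and Bmal1 CKO 3 shared 17, beside 13.6%. Control 1 shared 95, beside 76.4%, Control 2 shared 17, beside 10.7%, and Control 3 shared 8, beside 8.72%. Of all merged regions, 55.9% hold a peak of Bmal1 CKO 2 and 73.7% one of Control 1. The promoter window of Gm15319, overlapped by a member of fold 3.67, was identical over all 300 bases to that of 4930467E23Rik in the same stretch.

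**Figure D3:**
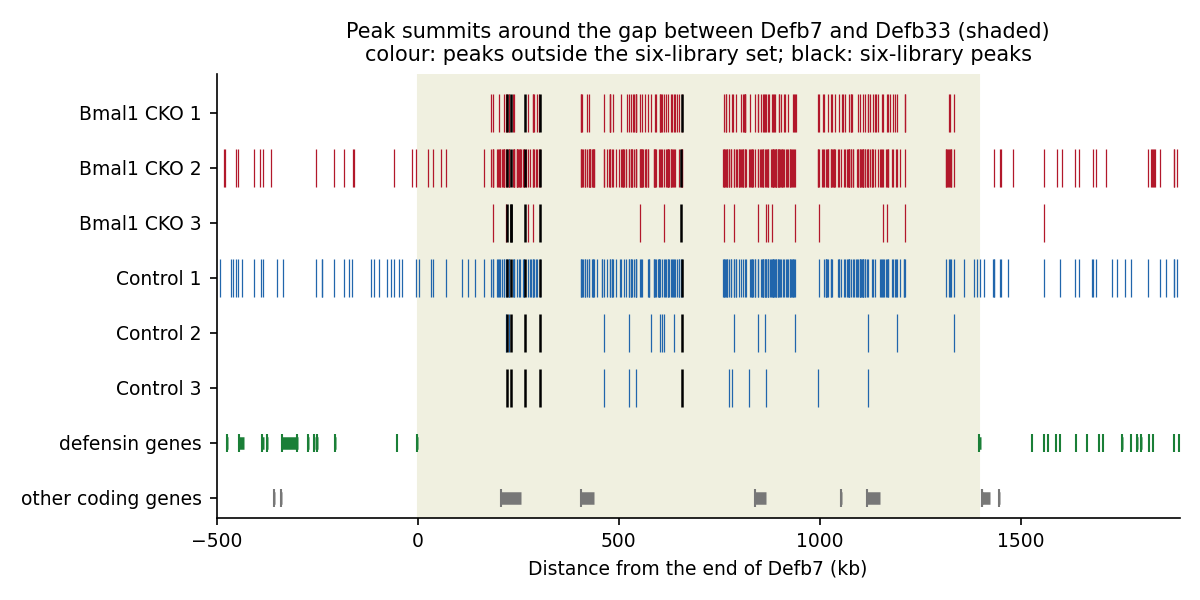
Peak summits of the 6 lists around the stretch between Defb7 and Defb33 (shaded), as distance in kb from the end of Defb7, with annotated coding genes in the lower rows. Coloured lines are peaks outside the 6-library set and black lines are peaks in it. The 134 members in the shaded stretch stand beside the defensin genes, and the 2 long lists are dense at the same places.

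Other dense intervals had a character of their own. A tRNA gene array with 14 tRNA genes beside Fcgr3, chr1:171064588-171081946, held 9 members with folds of 2.59 to 4.46. Within 1 kb of a tRNA gene lay 12 members (1.01%), 5 of them on the mitochondrial genome, against none of the 252 6-library peaks of Bmal1 CKO 1, 0.120% of the Bmal1 CKO 2 list, 0.385% of the Bmal1 CKO 3 list, 0.0964% of the Control 1 list, 0.488% of the Control 2 list and none of the Control 3 list. The ends of the X and Y chromosomes, which hold the pseudoautosomal region, carried intervals with 5 members over Mid1 and Erdr1 on X, 8 members farther along X, and 15 members over Mid1-ps1 on Y. Sfi1 on chromosome 11, a centrosomal gene, held 6 members with folds of only 1.49 to 2.14. Tmem267 on chromosome 13 held 5 with folds of 2.15 to 3.91. The starts of autosomes and the X chromosome, up to 3.5 Mb, held 63 members (5.29%), against 44 (17.5%) of the 6-library peaks of Bmal1 CKO 1, 0.635% of the Bmal1 CKO 2 list, 12.3% of the Bmal1 CKO 3 list, 0.530% of the Control 1 list, 14.9% of the Control 2 list and 14.2% of the Control 3 list. The members thus lie above the long lists and below the short ones in this share. Chromosomes 8, 5, 4 and X had 15.4%, 14.5%, 11.8% and 10.2% of the members, against 5.14%, 6.24%, 6.11% and 2.44% of the Control 1 list, and chromosome 2 had 1.76%, against 7.10%.

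The level of local background varied widely between the classes. It is given here as the local background at a peak over the genome-wide level of the same library. In Bmal1 CKO 1 its median was 1.88 for members in dense intervals within gene clusters and 3.10 in dense intervals outside them. It was 1.25 for those scattered in gene clusters and 1.29 for those in neither. All members had a median of 1.62, and 463 (38.8%) were at 2 or more. The 6-library peaks of Bmal1 CKO 1 were higher, with a median of 2.23 and 142 (56.3%) at 2 or more. The 10 members of the interval over Sfi1 had a median of 25.4, those of the interval over Tmem267 16.1 and those on the mitochondrial genome 10.6. Of the 48 intervals, 27 had a median of at least 2 and 9 a median under 1.1. The largest interval, over the Pramel genes, had 1.31.

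The matching peaks of the other libraries showed the same places as high. For members in dense intervals outside gene clusters the median was 2.27 in Bmal1 CKO 2, 5.18 in Bmal1 CKO 3, 2.49 in Control 1, 3.86 in Control 2 and 3.76 in Control 3. For members in neither it was 1.26, 1.71, 1.4, 1.80 and 1.67 in the same 5 libraries. Across merged regions, Pearson's r between the log2 background ratio of Bmal1 CKO 1 and that of the other library was 0.906 for Bmal1 CKO 2 (996 regions), 0.948 for Bmal1 CKO 3 (152), 0.854 for Control 1 (883), 0.955 for Control 2 (121) and 0.987 for Control 3 (97). For the log2 fold it was 0.591, 0.702, 0.542, 0.667 and 0.802. These regions share their libraries and many lie side by side, so the values describe the regions and carry no test. What sets the background at these places was not tested.

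**Figure D4:**
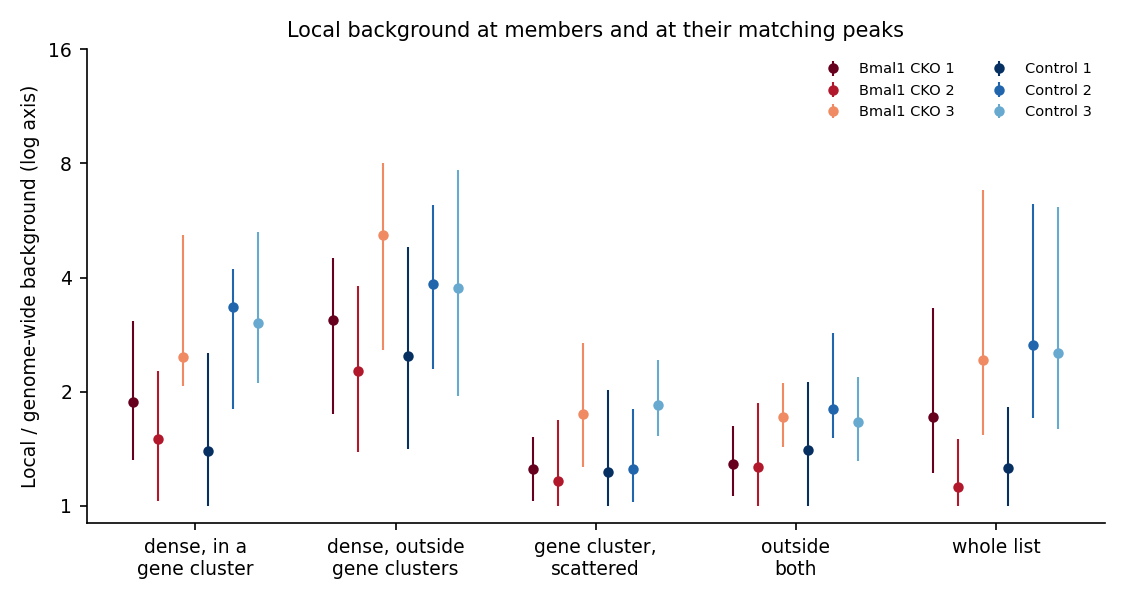
Local background over the genome-wide level of the same library (log axis) for members and their matching peaks, by class, and for the whole lists; points are medians over peaks and bars run from the lower to the upper quartile. Among the 4 classes, members in dense intervals outside gene clusters have the highest median in each of the 6 libraries, 3.10 in Bmal1 CKO 1 and 2.49 in Control 1.

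**Figure D5:**
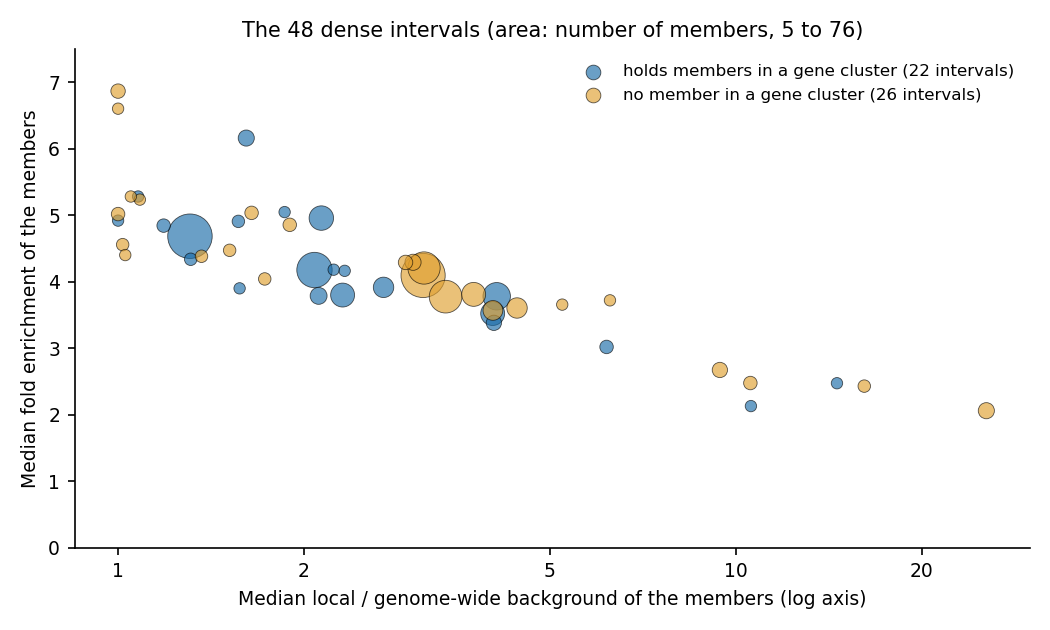
Median fold of the members of each of the 48 dense intervals against their median local background ratio (log axis), with the area of a point giving the number of members. Intervals of high background have low fold, as the interval at ratio 25.4 with a median fold of 2.06 shows; the fold has the local background in its denominator.

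Outside gene clusters and dense intervals lay 376 members (31.5%). Their median fold, 5.03, was above that of the other classes, which were at 4.22, 4.10 and 4.51. They were shared with Bmal1 CKO 2 in 84.8% of cases, with Bmal1 CKO 3 in 18.4%, with Control 1 in 76.1%, with Control 2 in 13.03% and with Control 3 in 13.3%. A short list held 127 of them (33.8%). The same held for 106 (28.5%) of the members in dense intervals outside gene clusters, 24 (16.9%) of those scattered in gene clusters and 38 (12.6%) of those in dense intervals within gene clusters. Of the members outside both, 42 (11.2%) were in no other list. Another member lay within 100 kb of 153 of them, so that smaller groups occur here too, and 136 had none within 1 Mb. Coding genes held 126 of their summits (33.5%). The X chromosome had 13.6% of them, against 10.2% of all members and 2.44% of the Control 1 list. Chromosome 14 had 11.2%, against 5.20% of all members and 4.68% of the Control 1 list.

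The member of highest fold belongs here. At chr5:36660839-36661712, in D5Ertd579e and over the start of Gm32584, whose sequence is printed above, it had a fold of 13.5 in Bmal1 CKO 1 and 13.8 in Control 3, and no other list had a peak there. A second member, chr5:36630379-36630617, is within 1 kb of the other annotated end of Gm32584 and had a fold of 7.07 in Bmal1 CKO 1 and 6.63 in Control 3, again in no other list. A further 3 members had this pattern, each with 1 Control 3 peak and none in the deeper lists. They were chr3:96044499-96045178 in Vps45, a vesicle-trafficking gene (9.35 in Bmal1 CKO 1 and 10.6 in Control 3), chr16:86820892-86821295, 533037 bp from the nearest coding gene (8.98 in Bmal1 CKO 1 and 8.66 in Control 3), and chrX:126693142-126693550 (8.22 in Bmal1 CKO 1 and 6.73 in Control 3). The 2 libraries are of different genotypes, and both long lists, from libraries of higher background level, lack all 5 places. In all, 7 members were shared with Control 3 alone and 2 with Control 2 alone.

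Other strong members of this class were shared more widely. At chrX:5204078-5204455 the fold was 10.6 in Bmal1 CKO 1, 7.46 in Bmal1 CKO 2, 4.93 in Control 1 and 8.33 in Control 2. At chr1:48881388-48881788 Bmal1 CKO 1 had 10.4, Bmal1 CKO 2 had 3.66 and Control 3 had 8.26. At chr18:68691959-68692304 it was 10.3 in Bmal1 CKO 1, 11.6 in Bmal1 CKO 2, 12.4 in Bmal1 CKO 3, 17.4 in Control 1 and 13.1 in Control 2, with all summits within 1 bp. The member in Ppp2r2b, a phosphatase subunit gene, at chr18:42975728-42976160, had 9.90 in Bmal1 CKO 1, 8.46 in Bmal1 CKO 2, 7.07 in Bmal1 CKO 3, 9.97 in Control 1 and 9.05 in Control 2. These last 2 lack only a Control 3 peak to be in the 6-library set. The member over Gm41331, printed above, stood at 9.81 for Bmal1 CKO 1, 5.85 for Bmal1 CKO 2 and 5.38 for Control 1.

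In dense intervals and gene clusters the strongest members were chr6:114542232-114542578, 59111 bp from Hrh1, the gene of a histamine receptor, with 10.04 in Bmal1 CKO 1, 7.61 in Bmal1 CKO 2, 8.99 in Control 1 and 8.24 in Control 2, and chr17:19658477-19658846 near Vmn2r102, with 9.69 in Bmal1 CKO 1 and 4.10 in Bmal1 CKO 2. The interval around the place near Hrh1, 8 members over 114 kb with no annotated gene, had the highest median fold of the 48, at 6.87, with its local background at the genome-wide level.

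Members in no other list were not the strongest ones. The highest was chr7:64484887-64485218, 16504 bp from Apba2, a gene of a neuronal adaptor protein, at fold 8.46, followed by chr14:42512298-42512526 near Gm8020 and chrX:29062337-29062559, both at 6.61, and by a member inside Pcdh15, a cadherin gene needed in hair cells and photoreceptors, at 6.22. Of the 144, 52 (36.1%) lay in gene clusters and 84 (58.3%) in dense intervals, beside 37.2% and 56.5% of all members. Chromosome 8 held 29 of them. The Vmn2r117 member, at fold 4.57 and with its sequence printed above, is one of the 144.

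Within 1 kb of the start or end of a coding gene lay 69 member summits (5.79%), against 2.78% of the 6-library peaks of Bmal1 CKO 1, 11.2% of the Bmal1 CKO 2 list, 4.43% of the Bmal1 CKO 3 list, 10.5% of the Control 1 list, 2.93% of the Control 2 list and 3.76% of the Control 3 list. The share is below that of the long lists and above that of the short ones. Besides the 2 at Gm32584, the strongest were at Gm40367 (fold 7.66 for Bmal1 CKO 1, 7.88 for Bmal1 CKO 2 and 6.74 for Control 1) and at Vmn2r29 (7.22 in Bmal1 CKO 1, 8.31 in Bmal1 CKO 2, 4.65 in Bmal1 CKO 3, against 9.76 in Control 1). The study's title names the clock, thyroid hormone and cones, and genes of these lists were looked for near members. Among 23 clock genes and 15 thyroid hormone genes none had a member within 10 kb, and among 14 cone photoreceptor genes 1 had, Cnga3, which encodes a channel subunit of cone phototransduction. Its member, chr1:37232887-37233096, had a fold of 4.56 in Bmal1 CKO 1, 4.96 in Bmal1 CKO 2, 6.25 in Bmal1 CKO 3, against 6.49 in Control 1. Among all 21900 coding genes, 362 (1.65%) had a member within 10 kb. At that share, lists this short would hold hardly any such gene, so these counts do not set the list genes apart.

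The same rule applied to every list gives 1 value a library for a comparison of the genotypes. Peaks outside the 6-library set numbered 1192, 138018 and 273 in Bmal1 CKO 1 to 3 and 179236, 162 and 123 in Control 1 to 3, and each group thus spans both very long and short lists. These numbers come from the calls that the rule used. The set takes only 236 to 252 peaks from each list, so the numbers follow list length, and their test compares list lengths alone. On a log10 scale the mean was 3.55 ± 1.41 in Bmal1 CKO and 3.18 ± 1.79 in Control (SD, n = 3 each), a difference of 0.367 with p = 0.60 in an exact two-sided permutation test over 20 assignments, whose smallest possible p is 0.10. The share of these peaks in multi-copy gene clusters was 37.2%, 10.5% and 23.8% in Bmal1 CKO 1 to 3 and 9.82%, 24.7% and 13.01% in Control 1 to 3. It averaged 23.9% ± 13.4 in Bmal1 CKO and 15.8% ± 7.83 in Control (SD, n = 3 each), a difference of 8.02 percentage points, also with p = 0.60 in the exact permutation test. The first difference was smaller than the SD of either group, and the second was smaller than the SD in Bmal1 CKO but not than that in Control. The first turned negative without Bmal1 CKO 2 (−0.425), Control 2 (−0.0977) or Control 3 (−0.151). With the 123 strongest peaks outside the set taken from each list, the shares became 17.1%, 33.3% and 15.4% in Bmal1 CKO 1 to 3 and 30.9%, 24.4% and 13.01% in Control 1 to 3, and the difference turned to −0.813 percentage points.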

How the data were processed

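One peak list was deposited for each of 3 Bmal1 CKO and 3 Control libraries of retina. Reads were trimmed with Trim Galore, aligned with Bowtie2 to mm10 and peaks called with MACS2, per the submitters' processing notes; their versions and settings, and whether an input was used, are not given in those notes. Per peak, the authors deposited a fold enrichment (a ratio to a local background level), a −log10 p-value and a −log10 q-value. They also deposited a summit position and a score equal to 10 times the −log10 q-value rounded down. Which list belongs to which library was taken from the series record, since numbers in the list names differ from the titles.

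Peaks of all lists were merged at 1 bp overlap. Gene positions came from a RefSeq table of GRCm38.p6 with 49980 genes and no strand or exons, and promoter windows from a RefSeq table that has none for chromosome 18. Depth was recovered by solving fold and p-value for stacked fragments and background, with a pseudocount of 1 in the fold; the solved fragment numbers were whole to within 0.02 for 100.0% of peaks of each list. This reading of the values rests on that fit, and it carries the background values. The scripts were tested on simulated data. Peaks of a library are not replicates, so tests ran over libraries alone, as exact permutation tests. Promoter windows were compared with BLAST+ 2.17.0; other steps used Python 3.11.15, pandas 2.3.3 and scipy 1.17.1.

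Named were the 10 members of highest fold among all, outside both classes, in no other list and at a gene end, the 10 largest dense intervals, families with at least 5 members, and list genes; members called in a short list but no long list, the genes holding several members and part of the sequences were chosen after their values were seen. The members and gene lists were chosen with earlier results of these data known. Alternatives covered overlap, threshold, cluster and interval definitions, and left-out libraries.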

Additional observations from a re-analysis of the deposited data

How the results depend on the processing

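The number of members stayed within 1.5 times of 1192 when overlaps were not chained (1206), when 50% of a peak had to be covered (1229), where −log10 q was 5 or more (928), without the 2 long lists (1200, chosen after seeing the data) and with each other library left out (1153 to 1192); at a fold of at least 5 it was 440, because fewer peaks then enter. The share of members in gene clusters was 33.6% where −log10 q was 5 or more, 32.8% with a margin of 0 kb, 41.6% with 200 kb, 29.9% with at least 5 genes a cluster, 33.6% with coding genes only and 36.5% without stems of unlike genes (chosen after seeing the data). The share in dense intervals was 48.9% with a gap of 50 kb, 63.7% with 250 kb, 67.6% with at least 3 members an interval and 53.9% where −log10 q was 5 or more (the last 2 chosen after seeing the data).

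Between the genotypes, leaving out 1 library moved the log10 difference in peaks outside the set between −0.425 and 1.4, and it turned negative without Bmal1 CKO 2 (−0.425), without Control 2 (−0.0977) and without Control 3 (−0.151). The difference in the share in gene clusters ranged from 1.1 percentage points without Bmal1 CKO 1 to 14.5 without Bmal1 CKO 2, was 7.69 with a margin of 0 kb, and reversed to −0.813 with the same number of strongest peaks from every list; the cause was not tested. No p fell below 0.20 in these alternatives. Of the same-numbered libraries of the 2 genotypes, those numbered 3 deviated together in peak counts per 1 Mb bin (Pearson's r 0.735 over 2609 bins) and those numbered 1 and 2 did not (−0.671 and −0.833). Unlike numbers gave similar values, 0.870 for Bmal1 CKO 2 with Control 1 and 0.710 for Bmal1 CKO 3 with Control 2. The value was positive wherever both lists were long or neither was. It therefore cannot show whether the numbers pair the libraries, and they were not taken to do so. A replicate block left the differences at 0.367 and 8.02 and gave p = 0.75 for each in an exact permutation test over 8 assignments. The short lists come from shallow libraries: their background levels are 0.560 to 0.852 fragments per base, and a member missing from them is not shown to be absent there; whether depth accounts for a missing call was not tested.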
